A study of Homo sapiens with 9 samples.

Results

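The genes described here are the MYC-MAX transcription factor network together with MIZ1, the zinc finger factor encoded by ZBTB17. They were taken by symbol from the table of counts per gene: MYC, MAX, MXD1, MXI1, MXD3, MXD4, MNT, MGA, MLX and ZBTB17. All 10 symbols were found among the 11350 genes of the table. RNA-seq had been performed in HCT116, a human colorectal carcinoma cell line, grown without treatment. The lines were parental cells (HUWE1-P), cells in which the sequence around the catalytic cysteine of the endogenous HUWE1 ubiquitin ligase had been replaced by one coding for cysteine again (HUWE1-WT), and cells in which it had been replaced by one coding for serine (HUWE1-CS), with 3 libraries per line and 9 in all. HUWE1-WT and HUWE1-CS cells share a repair template of the same design, differing in that codon, a P2A site with a blasticidin resistance gene, and outgrowth from single cells under puromycin and blasticidin. Whether the 3 libraries of an edited line come from 1 clone or from several is not given in the sources used here, so that differences between clones and the cysteine-to-serine exchange cannot be told apart.

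MYC binds DNA as a dimer with MAX, mainly at the E-box CACGTG, and activates genes of growth and metabolism. MAX also pairs with the MXD proteins (MXD1, MXI1, MXD3 and MXD4) and with MNT, which recruit the SIN3-HDAC corepressor to the same sites, and with MGA, a subunit of a variant Polycomb complex. MLX is a MAX-like protein that pairs with MondoA (MLXIP), ChREBP (MLXIPL), MNT and some MXD proteins. MIZ1 activates genes on its own, among them CDKN1A and CDKN2B, and represses them when bound by MYC. HUWE1 ubiquitinates MYC and MIZ1 in several cell types. RNA-seq reads their mRNA only, not the proteins.

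The E-box core CACGTG was searched in the RefSeq promoter windows of these genes (250 bases before to 50 bases after the start site, build GRCh38.p14), since it is the site that all MAX dimers share. The counts themselves refer to hg19, and no coordinate of 1 build was used with the other. Windows of 8 of the 10 genes were searched, 13 windows in all. Windows of MYC and ZBTB17 are not used here, and the counts of the core leave both genes out. The core stood in 3 windows, those of MXD4, MNT and MLX, 1 match in each. Of all 35116 windows of the same length, 7.26% hold it, and of the 12906 windows of genes in the counts table, 9.61%. The core reads the same on both strands. Its first base lies 238 bases before the start site in MXD4 (chr4:2262060-2262359, minus strand), 193 bases before it in MNT (chr17:2401011-2401310, minus strand) and 50 bases before it in MLX (chr17:42566850-42567149, plus strand). These windows are shown with that of MXD3 (chr5:177312703-177313002, minus strand), since MXD4 and MXD3 are the MXD genes whose mRNA differed between lines; capitals mark the core, and the MXD3 window does not hold these letters.
MXD4: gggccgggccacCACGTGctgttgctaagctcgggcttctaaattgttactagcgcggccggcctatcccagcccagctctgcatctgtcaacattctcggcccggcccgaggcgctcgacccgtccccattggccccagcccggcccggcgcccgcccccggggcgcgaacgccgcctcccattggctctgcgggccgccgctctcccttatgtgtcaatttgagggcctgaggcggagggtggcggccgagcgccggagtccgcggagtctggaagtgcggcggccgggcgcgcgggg
MXD3: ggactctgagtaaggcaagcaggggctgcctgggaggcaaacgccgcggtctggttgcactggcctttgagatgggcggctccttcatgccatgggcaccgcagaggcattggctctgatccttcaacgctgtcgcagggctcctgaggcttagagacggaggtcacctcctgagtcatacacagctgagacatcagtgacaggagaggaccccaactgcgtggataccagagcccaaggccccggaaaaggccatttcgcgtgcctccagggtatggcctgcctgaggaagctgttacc
MNT: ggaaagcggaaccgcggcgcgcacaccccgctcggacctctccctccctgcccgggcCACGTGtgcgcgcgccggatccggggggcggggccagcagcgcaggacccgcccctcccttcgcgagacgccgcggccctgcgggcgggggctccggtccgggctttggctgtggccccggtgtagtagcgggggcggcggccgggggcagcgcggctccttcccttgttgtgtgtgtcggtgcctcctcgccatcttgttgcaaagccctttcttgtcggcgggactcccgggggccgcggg
MLX: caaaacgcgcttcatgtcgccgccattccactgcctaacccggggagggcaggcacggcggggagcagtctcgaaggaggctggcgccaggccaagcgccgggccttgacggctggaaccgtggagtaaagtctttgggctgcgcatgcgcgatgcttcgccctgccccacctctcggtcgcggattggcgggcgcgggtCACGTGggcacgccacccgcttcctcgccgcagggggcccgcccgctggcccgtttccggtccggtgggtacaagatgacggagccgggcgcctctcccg

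The libraries held between 1610984 and 2060349 counts, so that the floor of 3 counts equals 1.45 to 1.86 CPM (counts scaled to a common library size), counting error alone considered. Scaling used edgeR's TMM method, differences were tested with edgeR's quasi-likelihood test over all genes and all libraries, and genes with an FDR (false discovery rate after Benjamini and Hochberg) of 0.01 or less were called. HUWE1 mRNA itself lay between 522 and 561 CPM in HUWE1-P, between 453 and 498 CPM in HUWE1-WT and between 323 and 345 CPM in HUWE1-CS libraries (log2 fold change of HUWE1-CS relative to HUWE1-P cells -0.69, standard error 0.0650, adjusted p = 1.06e-15, edgeR). Counts per gene do not show the codon exchange. Of 10 markers of colon epithelium, EPCAM, KRT8, KRT18 and CDH1 were counted in every library. The other 6 (CDH17, VIL1, LGALS4, CEACAM5, TFF3 and KRT20) were not in the table. The sum of these 4 was 3235 to 3362 CPM in HUWE1-P, 3220 to 3501 CPM in HUWE1-WT and 2704 to 2984 CPM in HUWE1-CS libraries. The markers did not move together: relative to either control line EPCAM and CDH1 were called higher (log2 fold changes 0.28 and 0.53 relative to HUWE1-P cells) and KRT8 and KRT18 lower (-0.32 and -0.30). Of 10 markers of blood, endothelial and stromal cells only COL1A1 was in the table, with 19.2 to 24.7, 18.0 to 25.6 and 8.71 to 14.8 CPM, respectively. The part of these shifts in the results was not tested. In bulk RNA, fewer cells that express a gene and less RNA per cell cannot be told apart.

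Within the network, MXD4 mRNA was called higher in HUWE1-CS cells than in both control lines. MXD3 mRNA was called lower than in HUWE1-P cells only, and MYC mRNA lower than in HUWE1-WT cells only. MXD4 was 1.87-fold higher than in HUWE1-P cells and 1.603-fold higher than in HUWE1-WT cells. MXD3 was 1.77-fold lower than in HUWE1-P cells, and MYC was 1.24-fold lower than in HUWE1-WT cells. Among 20 other fits, 4 lost the MXD3 call and 3 the MXD4 call relative to HUWE1-WT cells. No call was made for MAX, MXD1, MXI1, MNT, MGA, MLX and ZBTB17 in any comparison.

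In HUWE1-CS cells 2 of the 10 genes differed from HUWE1-P by the FDR limit, 1 higher (MXD4) and 1 lower (MXD3). Over all genes tested, 17.0% were called in this comparison, 8.46% higher and 8.58% lower. The libraries of both lines did not overlap for 5 of the 10 genes (MYC, MXD3, MXD4, MGA and ZBTB17), while this was so for 37.9% of all genes. Against HUWE1-WT cells, 2 of the 10 genes were called, MXD4 higher and MYC lower, where 15.5% of all genes were called, 7.42% higher and 8.08% lower. The libraries did not overlap for 7 of the 10 genes (MYC, MXD1, MXI1, MXD3, MXD4, MLX and ZBTB17), compared with 36.1% of all genes. In the comparison of the control lines, HUWE1-WT with HUWE1-P, 0 of the 10 genes were called by edgeR, DESeq2 or limma-voom, and 0.0617% of all genes by edgeR; 1 of the 10, MYC, had an unadjusted p under 0.05. Libraries of these control lines did not overlap for 3 of the 10 genes (MXD3, MGA and ZBTB17), compared with 10.7% of all genes. The median log2 fold change of the 10 genes was -0.12, -0.14 and -0.13 in the order of these comparisons, and the median absolute log2 fold change 0.26, 0.29 and 0.20, where all genes had 0.22, 0.22 and 0.10. Both comparisons of HUWE1-CS cells use the same HUWE1-CS libraries, and both comparisons with HUWE1-P cells the same HUWE1-P libraries.

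**Figure D1:**
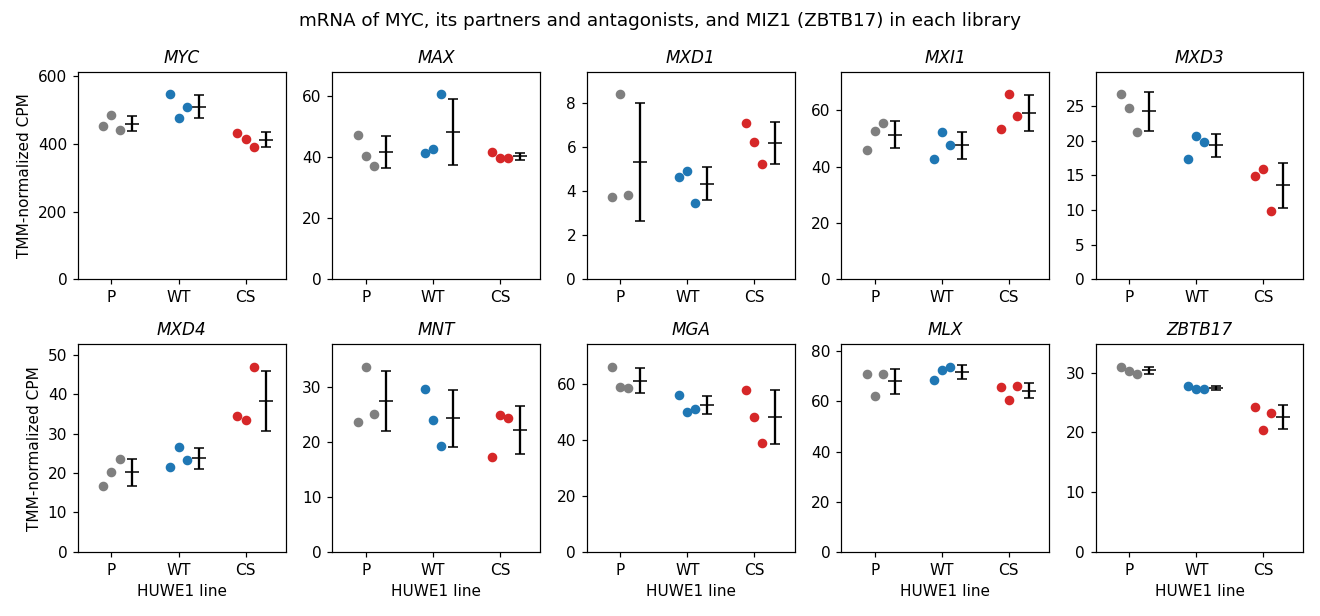
Normalized mRNA levels (TMM-normalized CPM, vertical axes from 0) of the 10 genes in the 3 HUWE1-P (P, grey), 3 HUWE1-WT (WT, blue) and 3 HUWE1-CS (CS, red) libraries, with the mean and SD of each line in black. MXD4 points of HUWE1-CS libraries start at 33.5 CPM and all lie above the other 6 libraries, MXD3 points end at 15.9 CPM and all lie below them, and ZBTB17 points fall in 3 separate ranges.

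MYC (Entrez identifier 4609; chromosome 8, 128747680 to 128755197, plus strand, GRCh37) is the activating member of the network. Its level was 454, 485 and 440 CPM in the HUWE1-P libraries, 546, 476 and 507 CPM in the HUWE1-WT libraries and 432, 415 and 390 CPM in the HUWE1-CS libraries. The 3 HUWE1-CS libraries were below all 6 control libraries, while HUWE1-WT and HUWE1-P libraries overlapped. MYC had a log2 fold change in HUWE1-CS relative to HUWE1-WT cells of -0.31 (standard error 0.0651, adjusted p = 1.36e-04, edgeR) and relative to HUWE1-P cells of -0.16 (95% interval -0.29 to -0.03, adjusted p = 0.0679, edgeR). The latter missed the threshold. The difference between the control lines, 0.15 (95% interval 0.02 to 0.28, adjusted p = 0.823, edgeR), did not pass it either. Of the 10 nearest tested genes on the chromosome, 5 on each side, 4 were called lower and 1 higher in HUWE1-CS relative to HUWE1-P cells. Over all genes 8.58% were called lower and 8.46% higher. The 10 neighbours had a median log2 fold change of -0.26. Their part in the value of MYC was not tested.

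MAX (Entrez identifier 4149; chromosome 14, 65472892 to 65569413, minus strand) is the shared partner of MYC, the MXD proteins, MNT and MGA. It had 47.2, 40.4 and 37.1 CPM in HUWE1-P, 41.1, 42.5 and 60.5 CPM in HUWE1-WT and 41.5, 39.7 and 39.5 CPM in HUWE1-CS libraries. The lines overlapped, and HUWE1-WT replicate 3 alone was above 50 CPM. The log2 fold change of HUWE1-CS cells was -0.03 (95% interval -0.34 to 0.27, adjusted p = 0.898, edgeR) relative to HUWE1-P cells and -0.25 (95% interval -0.55 to 0.04, adjusted p = 0.220, edgeR) relative to HUWE1-WT cells. Without HUWE1-WT replicate 3 the latter was -0.06 (adjusted p = 0.861, edgeR). Exons of MAX share 16.1% of their bases with genes on the other strand, FNTB among them, and the use of strand in counting is not given in the sources used here.

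The 4 MXD genes encode the short MAX partners that recruit SIN3 and compete with MYC for MAX. MXD4 (Entrez identifier 10608; chromosome 4, 2249159 to 2263836, minus strand) had 16.8, 20.2 and 23.6 CPM in HUWE1-P, 21.4, 26.7 and 23.3 CPM in HUWE1-WT and 34.4, 33.5 and 47.0 CPM in HUWE1-CS libraries. In counts these were 27 to 49, 37 to 49 and 58 to 81 reads. All HUWE1-CS libraries were above all 6 control libraries, with HUWE1-CS replicate 3 the highest. MXD4 rose by 0.90 on the log2 scale (standard error 0.180, adjusted p = 3.82e-05, edgeR) relative to HUWE1-P cells and by 0.68 (standard error 0.175, adjusted p = 0.00179, edgeR) relative to HUWE1-WT cells, with 0.22 (95% interval -0.17 to 0.62, adjusted p = 0.971, edgeR) between the control lines. The call relative to HUWE1-P cells was made in all 20 other fits (adjusted p from 1.39e-05 to 0.00383), whereas that relative to HUWE1-WT cells was lost without HUWE1-CS replicate 3 (log2 fold change 0.51, adjusted p = 0.0503), without HUWE1-WT replicate 1 (0.61, adjusted p = 0.0151) and with DESeq2 (0.69, adjusted p = 0.0292). For the 10 nearest tested genes the median was -0.15 on the log2 scale relative to HUWE1-P and -0.08 relative to HUWE1-WT cells. Of these neighbours 0 were called relative to HUWE1-P and 2 relative to HUWE1-WT cells, beside 17.0% and 15.5% of all genes.

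MXD3 (Entrez identifier 83463; chromosome 5, 176728462 to 176739758, minus strand), an MXD gene known to be expressed in proliferating cells, moved the other way. It had 26.7, 24.7 and 21.2 CPM in HUWE1-P, 17.4, 20.7 and 19.8 CPM in HUWE1-WT and 14.8, 15.9 and 9.87 CPM in HUWE1-CS libraries, which are 43 to 44, 30 to 38 and 17 to 28 reads. The 3 lines did not overlap, with HUWE1-WT libraries between the other two. The log2 fold change of HUWE1-CS cells was -0.82 (standard error 0.221, adjusted p = 0.00259, edgeR) relative to HUWE1-P cells. Against HUWE1-WT cells it was -0.51 (95% interval -0.97 to -0.05, adjusted p = 0.1004, edgeR) and between the control lines -0.31 (95% interval -0.72 to 0.09, adjusted p = 0.914, edgeR), and neither passed the threshold. The call relative to HUWE1-P cells was lost without HUWE1-CS replicate 3 (log2 fold change -0.63, adjusted p = 0.0441), without HUWE1-P replicate 1 (-0.75, adjusted p = 0.0185), without HUWE1-P replicate 2 (-0.80, adjusted p = 0.01001) and with DESeq2 (-0.82, adjusted p = 0.0302). MXD3 shares 43.7% of its exon bases with RAB24 on the same strand and PRELID1 on the other, so that reads may be split between them. RAB24 (log2 fold change -0.24, adjusted p = 0.632, edgeR) and PRELID1 (-0.12, adjusted p = 0.407, edgeR) were not called relative to HUWE1-P cells. Relative to HUWE1-WT cells RAB24 had a log2 fold change of -0.60 (adjusted p = 0.152, edgeR), with HUWE1-CS libraries below those of HUWE1-WT cells, and was not called either.

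MXI1 and MXD1 were not called. MXI1 (Entrez identifier 4601; chromosome 10, 111967363 to 112047123, plus strand) had 45.9, 52.8 and 55.4 CPM in HUWE1-P, 42.9, 52.4 and 47.7 CPM in HUWE1-WT and 53.4, 65.8 and 58.1 CPM in HUWE1-CS libraries. The HUWE1-CS libraries were above those of HUWE1-WT cells (log2 fold change 0.31, 95% interval 0.05 to 0.57, adjusted p = 0.0787, edgeR) and overlapped those of HUWE1-P cells (0.19, 95% interval -0.06 to 0.45, adjusted p = 0.285, edgeR). MXD1 (Entrez identifier 4084; chromosome 2, 70124820 to 70170077, plus strand) was near the floor, with 6 to 15 reads per library and 3.49 to 8.42 CPM. Its 95% interval relative to HUWE1-P cells ran from -0.57 to 1.01 on the log2 scale, so that neither no change nor a change of the size found for MXD4 could be told at this depth. The HUWE1-CS libraries were above those of HUWE1-WT cells, with a log2 fold change of 0.50 (95% interval -0.33 to 1.33, adjusted p = 0.423, edgeR).

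**Figure D2:**
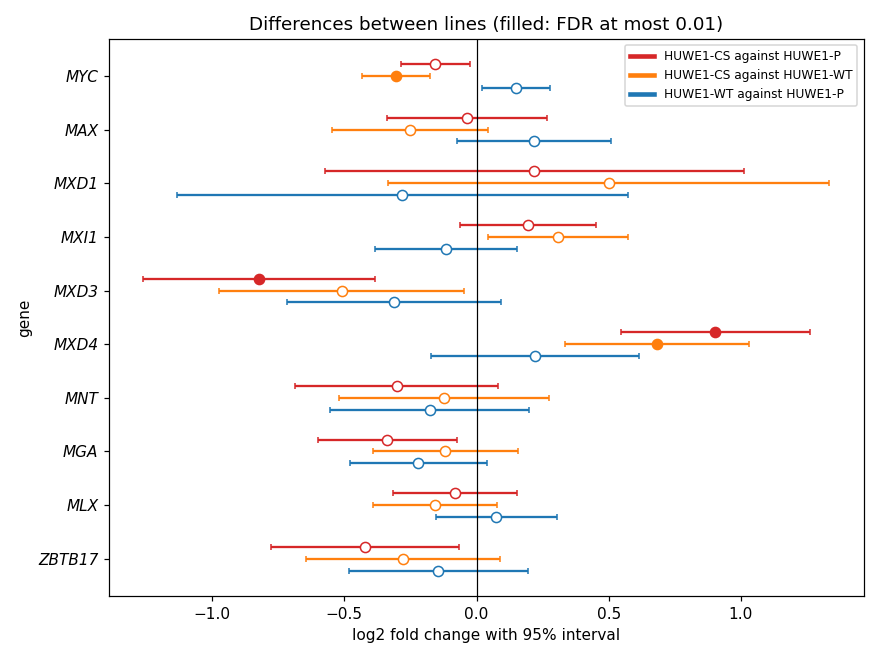
Log2 fold change (horizontal axis) with its 95% interval (edgeR) of each gene in HUWE1-CS relative to HUWE1-P cells (red), HUWE1-CS relative to HUWE1-WT cells (orange) and HUWE1-WT relative to HUWE1-P cells (blue); filled points were called at an FDR of at most 0.01. MXD4 is filled at 0.90 and 0.68, MXD3 at -0.82 relative to HUWE1-P cells only and MYC at -0.31 relative to HUWE1-WT cells only.

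MNT and MGA encode the large MAX-binding repressors. MNT (Entrez identifier 4335; chromosome 17, 2287367 to 2304398, minus strand), the broadly expressed one, had 23.6, 33.7 and 25.1 CPM in HUWE1-P, 29.6, 24.0 and 19.2 CPM in HUWE1-WT and 17.2, 25.0 and 24.4 CPM in HUWE1-CS libraries. The lines overlapped (log2 fold change relative to HUWE1-P cells -0.30, 95% interval -0.69 to 0.08, adjusted p = 0.260, edgeR). MGA (Entrez identifier 23269; chromosome 15, 41913332 to 42065279, plus strand), which also carries a T-box, had 66.4, 58.9 and 58.8 CPM in HUWE1-P, 56.2, 50.2 and 51.2 CPM in HUWE1-WT and 58.2, 48.2 and 38.9 CPM in HUWE1-CS libraries. HUWE1-P libraries were highest, and HUWE1-CS libraries were spread over more than the whole range of HUWE1-WT libraries. The log2 fold change of MGA was -0.34 (95% interval -0.60 to -0.07, adjusted p = 0.0484, edgeR) against HUWE1-P and -0.12 (95% interval -0.39 to 0.16, adjusted p = 0.585, edgeR) relative to HUWE1-WT cells. MGA is the longest of the 10 genes by exon length, and with a trend of the libraries with gene length removed its log2 fold change relative to HUWE1-P cells was -0.21 (adjusted p = 0.263, edgeR). Without HUWE1-CS replicate 3 it was -0.19 (adjusted p = 0.355, edgeR).

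MLX (Entrez identifier 6945; chromosome 17, 40719090 to 40725257, plus strand) had 70.8, 62.3 and 70.8 CPM in HUWE1-P, 68.4, 72.5 and 73.8 CPM in HUWE1-WT and 65.9, 60.7 and 66.2 CPM in HUWE1-CS libraries. Its log2 fold change in HUWE1-CS cells was -0.08 (95% interval -0.32 to 0.15, adjusted p = 0.662, edgeR) against HUWE1-P and -0.16 (95% interval -0.39 to 0.08, adjusted p = 0.362, edgeR) relative to HUWE1-WT cells. These intervals leave out a change of the size seen for MXD4. MLX shares 18.2% of its exon bases with PSMC3IP on the other strand.

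ZBTB17 (Entrez identifier 7709; chromosome 1, 16268364 to 16302627, minus strand), which encodes MIZ1, had 31.0, 30.3 and 29.9 CPM in HUWE1-P, 27.8, 27.3 and 27.3 CPM in HUWE1-WT and 24.3, 20.4 and 23.2 CPM in HUWE1-CS libraries. The 3 lines did not overlap, and HUWE1-CS libraries were the lowest. The log2 fold change in HUWE1-CS cells was -0.42 (95% interval -0.78 to -0.07, adjusted p = 0.0704, edgeR) against HUWE1-P and -0.28 (95% interval -0.64 to 0.09, adjusted p = 0.288, edgeR) relative to HUWE1-WT cells, and was not called. With 36 to 62 reads per library, the intervals are wider than the spread between the libraries of each control line.

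Levels were compared between genes per kilobase of merged exons. In HUWE1-P cells MYC stood at 75.2 ± 3.83 CPM per kb (SD, n = 3), MLX at 16.0 ± 1.15, MXI1 at 8.70 ± 0.828 and ZBTB17 at 7.17 ± 0.139 CPM per kb (SD, n = 3 each). MAX, at 6.64 ± 0.821 CPM per kb, overlapped ZBTB17, and MXD3 followed at 5.10 ± 0.586. MNT at 3.15 ± 0.626, MGA at 3.06 ± 0.217 and MXD4 at 2.94 ± 0.498 CPM per kb did not differ beyond their spread, and MXD1 was lowest at 0.840 ± 0.421. In HUWE1-CS cells MXD4, at 5.57 ± 1.10 CPM per kb, overlapped MAX (6.43 ± 0.181) and ZBTB17 (5.34 ± 0.476), and MXD3, at 2.85 ± 0.677, overlapped MNT (2.55 ± 0.496) and MGA (2.41 ± 0.480). The rank of MXD4 among the 10 genes was thus 9 in HUWE1-P, 7 in HUWE1-WT and 5 in HUWE1-CS cells, and with the longest transcript as length 8, 7 and 5.

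MYC made up most of the transcripts of MAX partners among the 10 genes, a sum without MYCL (line means 8.57 to 11.8 CPM). As a share of the summed counts per kb of MYC, the 4 MXD genes, MNT and MGA, it was 76.8%, 75.9% and 75.2% in HUWE1-P, 81.0%, 77.1% and 79.9% in HUWE1-WT and 75.3%, 72.6% and 72.4% in HUWE1-CS libraries. HUWE1-WT libraries were above the other lines, and 1 HUWE1-CS library lay within the range of HUWE1-P libraries. The mean share was 73.5% ± 1.61 in HUWE1-CS against 79.3% ± 2.01 in HUWE1-WT cells, a difference of -5.86 percentage points (two-sided exact permutation test, p = 0.1, the smallest value that 3 against 3 libraries allow). Against the 76.0% ± 0.779 of HUWE1-P cells the difference was -2.52 points (exact permutation p = 0.2), and between the control lines 3.34 points (exact permutation p = 0.1). The summed level of the 6 antagonists was 23.8 ± 1.38 CPM per kb in HUWE1-P, 21.7 ± 1.27 in HUWE1-WT and 24.4 ± 1.22 in HUWE1-CS cells (SD, n = 3 each). The sums of HUWE1-CS libraries (23.17 to 25.60 CPM per kb) overlapped those of HUWE1-P libraries and lay just above those of HUWE1-WT libraries (20.93 to 23.15 CPM per kb).

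**Figure D3:**
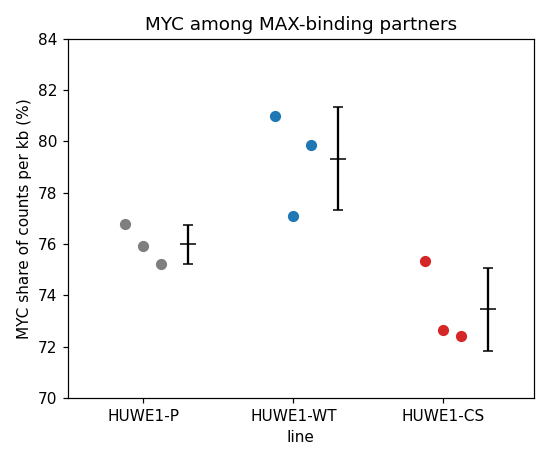
Share of MYC (vertical axis, percent, not drawn from 0) in the summed counts per kb of MYC, MXD1, MXI1, MXD3, MXD4, MNT and MGA in each library, with mean and SD of each line in black. HUWE1-WT libraries lie between 77.1% and 81.0%, above all other libraries, and HUWE1-CS libraries between 72.4% and 75.3%.

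Proteins that act with these factors were followed in lists typed from general knowledge. In the list of MYC relatives, binding proteins and MLX partners, 1 of 5 genes was called in HUWE1-CS relative to HUWE1-P cells, where 17.0% of all genes were called. MLXIP, which encodes MondoA, the partner of MLX, was lower (95.1 ± 10.8 CPM in HUWE1-P, 83.0 ± 8.64 CPM in HUWE1-WT and 58.1 ± 3.63 CPM in HUWE1-CS cells, SD, n = 3 each). Its log2 fold change was -0.72 (adjusted p = 3.08e-07, edgeR) against HUWE1-P and -0.51 (adjusted p = 4.82e-04, edgeR) relative to HUWE1-WT cells. Of the MondoA-MLX targets listed, TXNIP was not in the table. ARRDC4 had a log2 fold change of 0.83 (adjusted p = 0.0484, edgeR) relative to HUWE1-P cells that did not pass the threshold. It was 0.30 (adjusted p = 0.523, edgeR) relative to HUWE1-WT cells and 0.53 (adjusted p = 0.912, edgeR) between the control lines, on 8 to 24 reads per library.

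Of 16 genes that control turnover of the MYC protein, 4 were lower and 0 higher in HUWE1-CS cells relative to HUWE1-P cells, and likewise relative to HUWE1-WT cells, with median log2 fold changes of -0.17 and -0.11. Over all genes 8.58% and 8.08% were lower, and 1 of the 4 is the edited gene itself. The 4 were HUWE1 itself, CIP2A, an inhibitor of the phosphatase that destabilises MYC (log2 fold change relative to HUWE1-P cells -0.52, adjusted p = 5.70e-04, edgeR), and, named after their values were seen, the ubiquitin ligase components FBXW7 (-0.81, adjusted p = 0.00231, edgeR) and SKP2 (-0.61, adjusted p = 8.39e-04, edgeR). FBXW7 had 24.2 ± 0.631 CPM in HUWE1-P, 24.5 ± 3.35 CPM in HUWE1-WT and 13.7 ± 1.35 CPM in HUWE1-CS cells (SD, n = 3 each). Apart from HUWE1, the genes that were lower thus encode ubiquitin ligase components that promote MYC degradation as well as 1 protein that opposes it. With DESeq2, 1 and 2 of the 16 were called, and without HUWE1-CS replicate 3, 2 relative to HUWE1-WT cells.

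Among 17 coactivators of MYC, EP400 (log2 fold change -0.37, adjusted p = 0.00163, edgeR), the ATPase of a histone acetyltransferase complex, and the acetyltransferase CREBBP (-0.40, adjusted p = 0.00234, edgeR) were lower and ACTL6A (0.43, adjusted p = 0.00445, edgeR), an actin-like subunit of chromatin complexes, was higher in HUWE1-CS relative to HUWE1-P cells. These 3 of 17 stand beside 17.0% of all genes called, and over the list the median was -0.06 on the log2 scale. EP400 was also lower in HUWE1-WT than in HUWE1-P cells without passing the threshold (-0.34, adjusted p = 0.254, edgeR), and its difference between HUWE1-CS and HUWE1-WT cells was -0.03. Against HUWE1-WT cells 1 was called, where 15.5% of all genes were called. It was PAF1, an elongation factor named after its value was seen (-0.38, adjusted p = 0.00396, edgeR). The count relative to HUWE1-P cells was 0 with DESeq2 or without HUWE1-CS replicate 2, and 1 without HUWE1-CS replicate 1 or without HUWE1-P replicate 3; relative to HUWE1-WT cells it was 0 without HUWE1-CS replicates 1 or 2, or without HUWE1-WT replicates 1 or 2.

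In the SIN3-HDAC corepressor, which MXD proteins and MNT recruit, 2 of 17 genes were higher and 0 lower in HUWE1-CS relative to HUWE1-P cells, a count near the 8.46% of all genes called higher, with a median log2 fold change of 0.12. HDAC1, the deacetylase, rose from 296 ± 1.57 CPM in HUWE1-P and 304 ± 5.39 CPM in HUWE1-WT cells to 416 ± 25.5 CPM in HUWE1-CS cells (SD, n = 3 each; log2 fold change 0.49, adjusted p = 3.25e-09, and 0.45, adjusted p = 5.03e-08, edgeR). SAP18, a small subunit, rose by 0.42 on the log2 scale (adjusted p = 4.74e-06, edgeR). Against HUWE1-WT cells 3 were higher and 1 lower, beside 7.42% and 8.08% of all genes. The additional ones, named after their values were seen, were SINHCAF (0.27, adjusted p = 0.00600, edgeR) and SAP30 (-1.04, adjusted p = 0.00730, edgeR). The count of 4 relative to HUWE1-WT cells became 2 with DESeq2 and without HUWE1-CS replicate 1, HUWE1-CS replicate 3 or HUWE1-WT replicate 3. In the PRC1.6 complex that holds MGA, 1 of 14 genes was called relative to HUWE1-P cells, HDAC1 again, which both lists hold, where 17.0% of all genes were called. Against HUWE1-WT cells 1 of the 14 was higher, HDAC1, and 2 were lower, beside 7.42% and 8.08% of all genes. The lower ones, also named after their values were seen, were TFDP1 (-0.25, adjusted p = 0.00321, edgeR) and the chromobox gene CBX1 (-0.31, adjusted p = 8.18e-04, edgeR). PCGF6, L3MBTL2 and E2F6, subunits by which this complex is told from others and named after their values were seen, had log2 fold changes of 0.09, -0.08 and 0.09 relative to HUWE1-P cells and were not called.

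Genes that MIZ1 binds or that MYC represses through MIZ1 did not move in 1 direction. Of 10 such genes listed, CDKN2B and BCL2 were not in the table. Among the other 8, 2 were higher and 1 lower in HUWE1-CS relative to HUWE1-P cells, beside 8.46% and 8.58% of all genes. The median log2 fold change of the 8 was -0.16. CDKN1A, which encodes the cell cycle inhibitor p21 and is also a target of p53, rose from 157 ± 1.94 CPM in HUWE1-P and 172 ± 12.5 CPM in HUWE1-WT cells to 412 ± 8.14 CPM in HUWE1-CS cells (SD, n = 3 each; log2 fold change 1.40, adjusted p = 7.87e-32, and 1.26, adjusted p = 5.97e-29, edgeR). MXD4, itself on this list as a gene that MYC represses through MIZ1, was the other. The integrin gene ITGA6 was lower (log2 fold change -0.48, adjusted p = 1.10e-05, edgeR), and relative to HUWE1-WT cells ITGB1 was lower too (-0.24, adjusted p = 0.00206, edgeR; named after its value was seen). Relative to HUWE1-WT cells 2 of the 8 were higher and 2 lower, beside 7.42% and 8.08% of all genes. These 4 genes became 2 without HUWE1-CS replicate 2.

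Genes that MYC activates through E-boxes were called in the downward direction only. Of 29 genes analysed, 8 were lower and 0 higher in HUWE1-CS relative to HUWE1-P cells, and 9 lower and 0 higher relative to HUWE1-WT cells, while 8.58% and 8.08% of all genes were lower. The median log2 fold change was -0.08 in both comparisons, against -0.01 and -0.00 over all genes. Many genes of this list are highly expressed, so that smaller changes pass the limit than in genes with few reads. Relative to HUWE1-P cells SHMT2 was called at -0.24 (standard error 0.0706), while ZBTB17 was not at -0.42 (standard error 0.179). The share over all genes is thus not a like background for this list. CAD, which starts pyrimidine synthesis, fell from 314 ± 4.12 CPM in HUWE1-P and 277 ± 14.3 CPM in HUWE1-WT cells to 211 ± 4.03 CPM in HUWE1-CS cells (SD, n = 3 each; log2 fold change -0.58, adjusted p = 1.02e-10, and -0.39, adjusted p = 8.79e-06, edgeR). BOP1, a ribosome biogenesis factor, fell from 376 ± 16.9 CPM in HUWE1-P and 382 ± 7.61 CPM in HUWE1-WT cells to 271 ± 11.2 CPM (SD, n = 3 each; log2 fold change -0.48, adjusted p = 1.36e-08, and -0.50, adjusted p = 4.04e-09, edgeR). The other 6 called relative to HUWE1-P cells had log2 fold changes between -0.40 (the amino acid transporter SLC7A5) and -0.24 (the serine hydroxymethyltransferase SHMT2). The nucleolar protein NCL (-0.04), the polyamine enzyme ODC1 (-0.07) and the kinase CDK4 (-0.02), all well-known MYC targets and named after their values were seen, were not called. Without HUWE1-P replicate 1, 5 of the 29 genes were called relative to HUWE1-P cells.

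**Figure D4:**
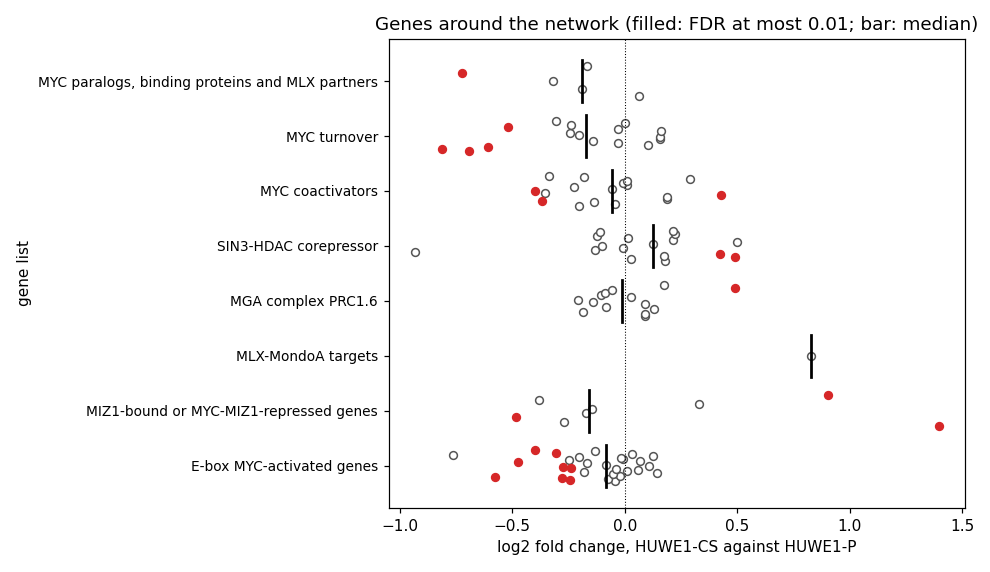
Log2 fold change in HUWE1-CS relative to HUWE1-P cells (horizontal axis) of each gene in the 8 lists of relatives, cofactors and targets of the network; filled red points were called at an FDR of at most 0.01 (edgeR) and black bars give each list's median. Called points of the MYC turnover and E-box lists all lie left of 0, the 2 called SIN3-HDAC points lie right of it, and CDKN1A is the rightmost point at 1.40.

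For the genes of the network called in any comparison, up to 3 genes with the most similar profile over the 9 libraries were taken from 9983 genes with a mean of at least 10 CPM (Pearson correlation of log2 CPM, given as a description). For MYC they were SLC39A8 (r = 0.973), STK38 (0.963) and TNS4 (0.942). For MXD3 they were PGPEP1 (0.972) and CSRNP1 (0.956), and for MXD4 RRN3 (0.983), ESRP1 (0.978) and ITM2C (0.978). The libraries share lines, which can alone give high values; for deviations from the line means the correlations of these 8 genes lay between 0.811 and 0.960, the genes having been picked for their likeness over the same libraries. Of the 8, 5 were called in HUWE1-CS relative to HUWE1-P cells, beside 17.0% of all genes. All 8 were picked for likeness to members called between the same lines, so that the choice itself favours such calls. TNS4 was at -0.58, CSRNP1, an immediate early gene, at -1.16 and RRN3, an initiation factor of RNA polymerase I, at 0.30 on the log2 scale. SLC39A8, STK38 and ITM2C were not called.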

How the data were processed

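Poly(A) RNA of 9 HCT116 libraries was sequenced with single-end reads. The authors demultiplexed with bcl2fastq (2.20), trimmed with Skewer, mapped to hg19 with STAR (2.5.4) and deposited raw counts per gene, without normalization; the counting tool, its annotation and its use of strand are not given in the sources used here. Tables of the authors' own edgeR (3.26.8) comparisons (fold changes, p-values, FDR) were not used. Samples were grouped by their titles. The members, lists and alternatives were chosen with earlier results of these data known.

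Everything else was computed with R 4.3.3, edgeR 4.0.16 (glmQLFit with the legacy estimator, as in the authors' version; TMM; line as the only term; all 9 libraries), limma 3.58.1 and DESeq2 1.42.0. P-values were adjusted over all 11350 genes, none of which was removed; edgeR's filterByExpr would have kept 11336 of them and all 10 members. Standard errors and 95% intervals of log2 fold changes come from the quasi-likelihood F statistic. Where replicates are cultures of 1 line, p-values measure only their spread. Pairs of replicates differed by more than sampling noise (chi-square per degree of freedom 1.16 to 1.65). Exon lengths and positions are from GENCODE v44 on GRCh37, on which 10887 genes were placed by symbol. The procedures were tested on simulated data.

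Named genes were the members, HUWE1, for each called member the 3 most similar genes (1 of which is not reported here), and from each list up to 2 called genes of smallest p in each direction relative to HUWE1-P cells; others were chosen after their values were seen. Alternatives were RLE factors, total counts, DESeq2, limma-voom, the newer edgeR estimator, a robust fit, a minimum of 10 counts, fits of 2 lines, the replicate block with and without a GC correction, removal of a length trend, an FDR limit of 0.05, a minimum fold change of 1 on the log2 scale and omission of each library.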

Additional observations from a re-analysis of the deposited data

How the results depend on the processing

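Of 597 alternative values for the 30 log2 fold changes of the members, 590 kept their call or its absence, 7 lost a call, and none gained a call or reversed a called direction; the 7 are those given for MXD3 and MXD4. At an FDR limit of 0.05, 3, 2 and 0 members were called in the 3 comparisons, the addition being MGA relative to HUWE1-P cells. With DESeq2, 1 of the 10 members was called in HUWE1-CS cells against HUWE1-P and 1 relative to HUWE1-WT cells, in place of 2 and 2; over all genes it called 1088 and 998, in place of 1934 and 1759. With a minimum change of 1 on the log2 scale, 0 were called by edgeR in either comparison. With each library left out in turn, 1 to 2 members were called in both. Deviations from the line means correlated little between libraries of the same replicate number (r from -0.03 to 0.06). Counting noise keeps such values low, so that they cannot tell whether the replicate numbers pair the libraries. With the replicate number as a block, 2, 2 and 0 members were called in the 3 comparisons. The MYC share without division by length was 70.8% in HUWE1-P, 74.7% in HUWE1-WT and 68.7% in HUWE1-CS cells, without MGA in the sum 78.4%, 81.3% and 75.4%, and with the longest transcript as length 75.1% in HUWE1-P cells, each difference between lines keeping its direction. Of 320 alternative counts for the gene lists, 26 moved by over 1.5 times; among them, with the length trend removed, 4 in place of 1 of the PRC1.6 genes and 4 in place of 2 of the SIN3-HDAC genes were called relative to HUWE1-P cells, and with the replicate block and GC correction 6 in place of 3 of the coactivators; relative to HUWE1-WT cells, 3 in place of 1 of the coactivators with the replicate block. Why these values moved was not tested. MXD1 has no value under the minimum of 10 counts. Depth limits MXD1 and MXD3 most, whose standard errors relative to HUWE1-P cells were 0.399 and 0.221 on the log2 scale.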
